A study of Mus musculus with 7 samples.

Results

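The genes described here are 8 members of the semaphorin guidance system, taken from the deposited matrix by their symbols: the ligands Sema3a, Sema3c and Sema6d, the neuropilins Nrp1 and Nrp2, and the plexins Plxna2, Plxna4 and Plxnd1. All 8 were found among the 21862 genes of the matrix. Semaphorins are guidance cues that steer axons, dendrites and migrating cells. The secreted class, to which Sema3a and Sema3c belong, is bound by neuropilins, which have no signalling domain of their own and pass the signal on through plexins. The transmembrane class, to which Sema6d belongs, binds plexins directly. In the cerebral cortex the system is known for guiding callosal axons, orienting dendrites and steering neurons, and in vessels Nrp1 is also a co-receptor for VEGF.

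The dorsal forebrain was taken from embryos of CD-1 mice, an outbred stock, on embryonic day (E) 10.5 and E12.5, daily between E14.5 and E16.5, and on E18.5. Papain was used to separate the cells for Drop-seq, which tags each mRNA molecule near its 3′ end with a cell barcode and a unique molecular identifier (UMI). There were 7 samples, 1 for each stage except E14.5, which had 2, and no treatment or mutant allele was named. The labels name no separate litters, and the spread behind each p-value is therefore that of these samples alone and may be technical.

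The matrix held 27776936 UMIs in 10261 cells, with 387 to 3235 cells and 1519473 to 6638760 UMIs per sample. The median was 1645 to 3352 UMIs per cell and 2.25 to 7.53% mitochondrial UMIs. The deposited file gives each cell 1 of 19 cluster numbers without names, called labels here, which were named from marker lists. Labels 2, 5, 9 and 11 were projection neuron-like, label 8 interneuron-like, label 13 Cajal-Retzius-like, labels 4 and 7 intermediate progenitor-like, and labels 1, 3, 6, 10 and 12 apical progenitor-like. Label 0, led by Unc5d, Pcp4, Klhl35 and Slc17a6, stayed unnamed. All 10 pan-neuronal markers were detected in label 0 in each sample, at a summed 5303 to 7075 CPM, against 1778 to 3293 CPM in intermediate progenitor-like cells. Label 8 had more, with 8023 to 10627 CPM, as did projection neuron-like cells, with 11062 to 13733 CPM. Intermediate progenitor markers summed to 1507.5 to 2458 CPM in label 0, between projection neuron-like cells (340 to 841 CPM) and intermediate progenitor-like cells (4244 to 6711 CPM). Labels 9, 0, 5, 2, 11 and 8 are called the 6 main neuron labels here, and the Cajal-Retzius-like label 13 is given apart from them. The name of label 9 rests on 3 of 18 projection neuron markers at 2-fold, and its leading genes included Crym, Grp and Sema3c. The labels were built from these same cells, with Sema3c and Nrp2 among the 10 leading genes of label 9 and Sema6d among those of label 0, so that differences between labels are given as a description, with no test. Levels are in CPM, a gene's UMI count scaled to a fixed total (counts per 1e6 UMIs) in the cells of 1 label in 1 sample, where at least 20 cells were present. Genes are not compared with each other in level.

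The secreted ligand Sema3c, which is known as an attractant for callosal axons, was concentrated in label 9 and label 0. In label 9 it had 390.2 CPM in E14.5 replicate 1, 514 CPM at E15.5, 539 CPM at E16.5 and 1029 CPM at E18.5 (618 ± 281, SD, n = 4 samples). In label 0 it had 163 CPM at E12.5, 143 and 169 CPM in the E14.5 samples, 233 CPM at E15.5, 318 CPM at E16.5 and 819.7 CPM at E18.5 (308 ± 259, SD, n = 6). Label 9 was above label 0 in each of the 4 samples that had both, on average by 0.90 on the log2(CPM + 5) scale. The remaining main neuron labels had far less. The mean was 43.0 ± 5.27 CPM in label 2 (SD, n = 4), 30.1 ± 23.9 CPM in label 5 (SD, n = 5), 11.5 ± 15.4 CPM in label 11 (SD, n = 4) and 5.59 ± 7.57 CPM in label 8 (SD, n = 7). No sample of these 4 labels reached the lowest sample of label 9 or of label 0, and among them label 2 was above labels 5, 8 and 11 in 3 of 3, 4 of 4 and 3 of 3 shared samples. The contrast between labels 9 and 11 was seen at the same depth. A Sema3c UMI was found in 67.7% of the 431 label 9 cells (median 2952 UMIs), against 3.47% of the 404 label 11 cells (median 2935 UMIs) and 0.909% of the 220 Cajal-Retzius-like cells of label 13 (median 2563 UMIs). With every cell thinned to 1000 UMIs these shares were 44.7%, 1.33% and 0%.

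**Figure D1:**
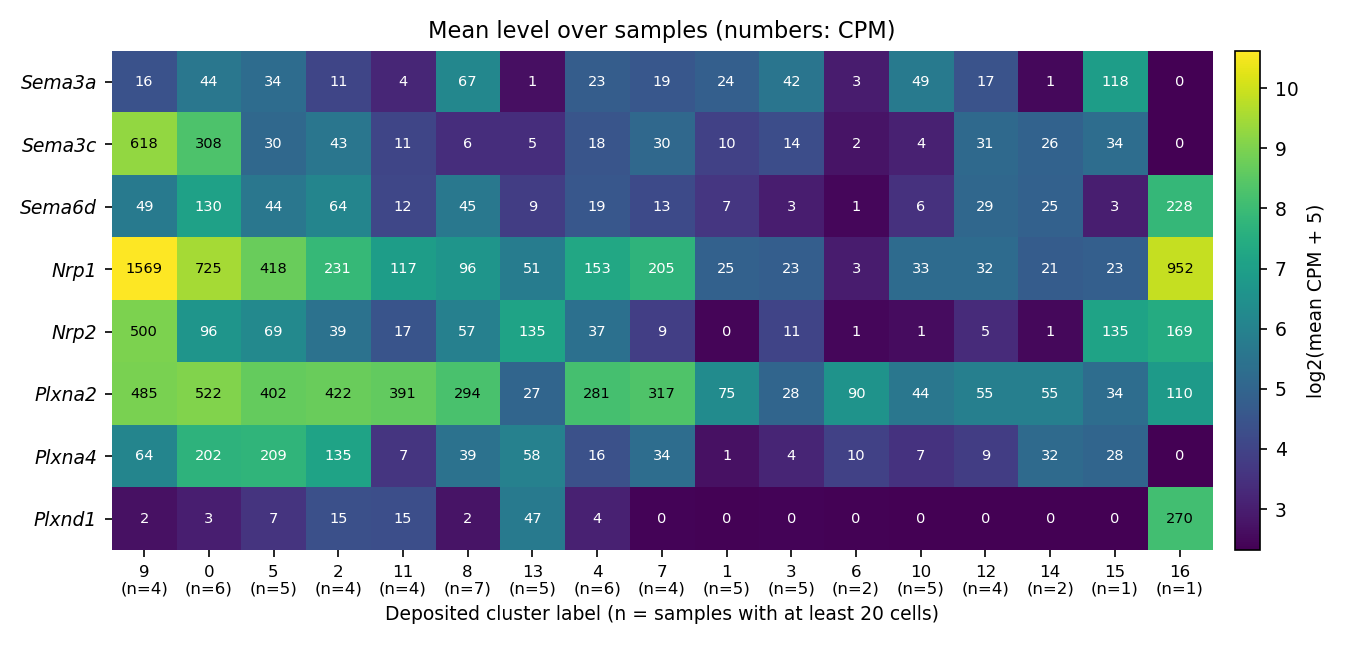
Heat map of the mean CPM of the 8 genes (rows) in 17 labels (columns), coloured by log2(mean CPM + 5), with the number of samples of at least 20 cells under each label. Sema3c, Nrp1 and Nrp2 were highest in label 9, while Plxna2 lay between 281 and 522 CPM in all of labels 9, 0, 5, 2, 11, 8, 4 and 7.

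Sema3a, a secreted repellent of cortical axons that also orients apical dendrites, had a different distribution. Among the 6 main neuron labels it was highest in label 8, with a lowest value of 29.0 CPM at E18.5, a median of 49.3 CPM and a highest value of 134 CPM in E14.5 replicate 2 (67.2 ± 38.8, SD, n = 7). Label 0 had 44.3 ± 27.1 CPM (SD, n = 6) and label 5 had 33.6 ± 18 CPM (SD, n = 5), and these 3 labels overlapped. The label 8 level came from 52 UMIs in 25 of 436 cells, with 10 of these UMIs in 2 cells at E10.5. The mean share of cells with a Sema3a UMI over samples was 7.48% in label 8, 7.85% in label 0 and 10.1% in label 5. After thinning these shares were 4.04%, 4.04% and 1.34%. Label 9 had 16.4 ± 16.8 CPM (SD, n = 4), label 2 had 11.5 ± 9.56 CPM (SD, n = 4) and label 11 had 4.36 ± 5.12 CPM (SD, n = 4). Label 8 was above label 11 in 4 of 4 shared samples, by 3.07 on the log2(CPM + 5) scale. Progenitors also carried Sema3a. Label 10, an apical progenitor-like label led by genes of mitosis, had 48.8 ± 23.6 CPM (SD, n = 5), and label 3 had 41.9 ± 26.3 CPM (SD, n = 5), which is within the range of labels 8 and 0. The most Sema3a per UMI was in the mesenchyme-like label 15, found in 142 cells of E10.5, at 118 CPM (exact Poisson 95% interval 92.9 to 148, counting error only). Counts were low, with 765 Sema3a UMIs in the whole matrix, so that single samples of small labels rest on a handful of molecules.

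Sema6d, a transmembrane ligand of class A plexins, was highest among the 6 main neuron labels in label 0. It had 184 CPM at E12.5, 140.4 and 209 CPM in the E14.5 samples, 125 CPM at E15.5, 77.9 CPM at E16.5 and 42.8 CPM at E18.5 (129.7 ± 62.5, SD, n = 6). The early samples of label 0 were high and the late ones low. Label 2 had 63.9 ± 39.1 CPM (SD, n = 4), label 9 had 48.9 ± 19.97 CPM (SD, n = 4), label 8 had 44.9 ± 21.9 CPM (SD, n = 7) and label 5 had 44.2 ± 36.8 CPM (SD, n = 5), all within each other's spread. Label 0 was above label 2 in 4 of 4 and above label 5 in 5 of 5 shared samples, but not above label 9 at E18.5 (42.8 CPM in label 0 and 75.6 CPM in label 9). Label 11 had the least of the 6, with 12.1 ± 7.30 CPM (SD, n = 4), and label 13 had 9.20 ± 10.7 CPM (SD, n = 5).

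**Figure D2:**
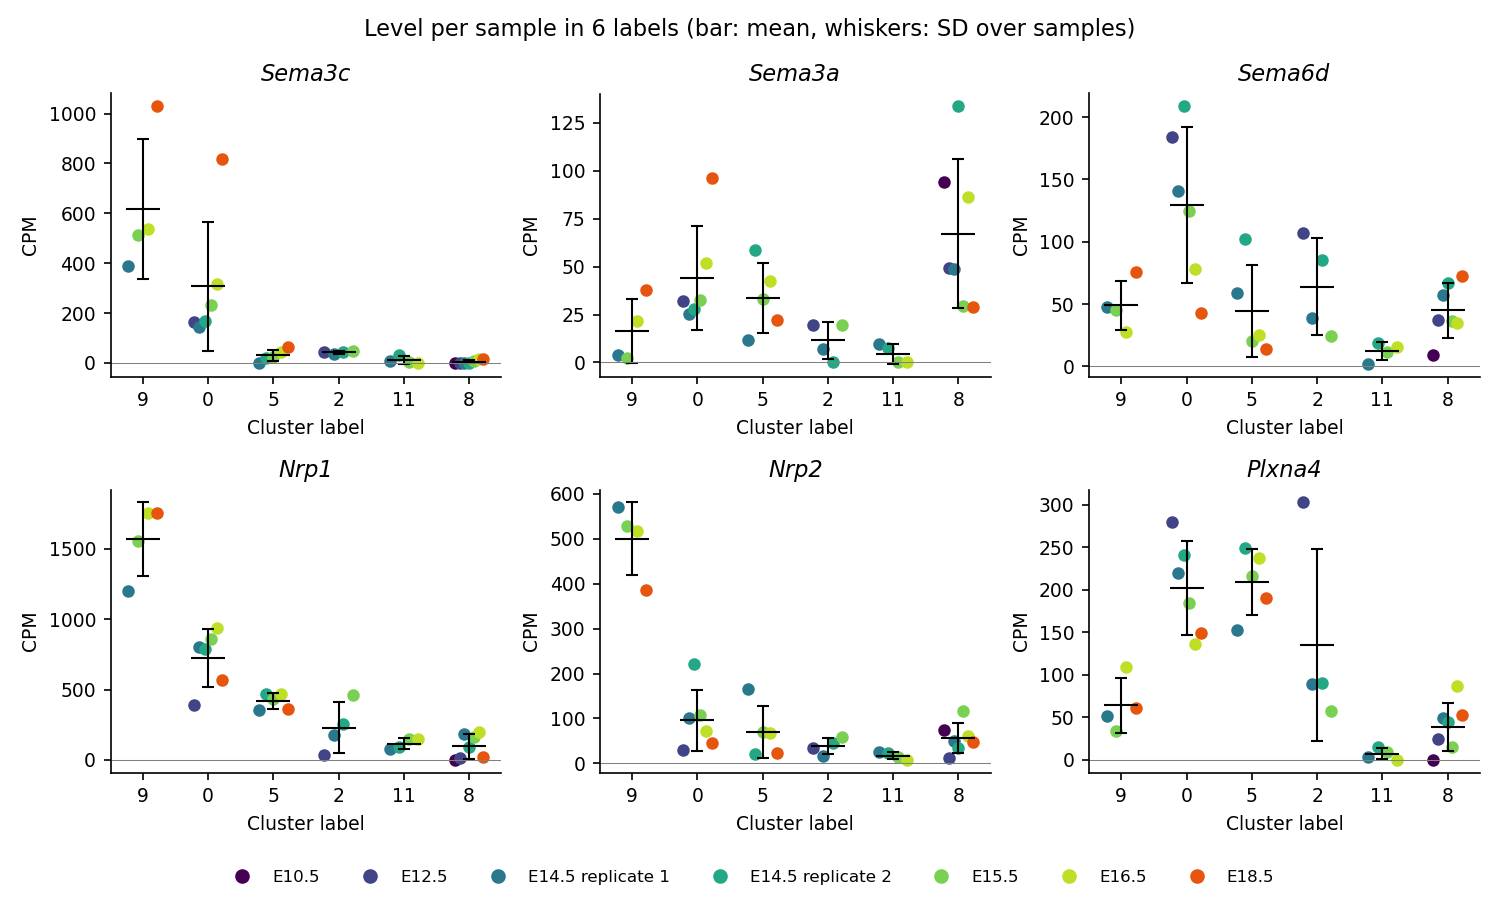
CPM of 6 genes in 6 labels, 1 point per sample coloured by stage, with the mean as a bar and the SD over samples as whiskers. The 4 label 9 samples of Nrp1 and of Nrp2 lie above every sample of the other 5 labels, whereas the Sema3a points of labels 0, 5 and 8 overlap.

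Among the receptors, both neuropilins had their highest mean in label 9. Nrp1, the receptor for Sema3a and Sema3c, had 1202 CPM in E14.5 replicate 1, 1556 CPM at E15.5, 1759 CPM at E16.5 and 1758 CPM at E18.5 (1569 ± 262, SD, n = 4). Label 0 was the next of the 6 main neuron labels, with 392 CPM at E12.5, 802 and 790.3 CPM in the E14.5 samples, 863 CPM at E15.5, 935 CPM at E16.5 and 570.2 CPM at E18.5 (725 ± 204, SD, n = 6). Label 5 had 418 ± 57.5 CPM (SD, n = 5) and label 2 had 231 ± 178 CPM (SD, n = 4), and the lowest of the 6 were label 11 with 117 ± 36.1 CPM (SD, n = 4) and label 8 with 96.2 ± 86.3 CPM (SD, n = 7). Label 13 had 51.4 ± 9.69 CPM (SD, n = 5), and the endothelial-like label 16 had 952 CPM in the 1 sample with at least 20 of its cells. Each step of the order label 9, label 0 and label 5 held in every shared sample (4 of 4 and 5 of 5), while label 2 overlapped label 5 and label 11 overlapped label 8. A Nrp1 UMI was found in 90.0% of label 9 cells (74.0% after thinning), against 6.53% of label 10 cells (median 3149 UMIs, 2.46% after thinning).

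Nrp2, the receptor best known for binding Sema3f and shared with Sema3c, was narrower. In label 9 it had 572 CPM in E14.5 replicate 1, 527 CPM at E15.5, 517 CPM at E16.5 and 385 CPM at E18.5 (500.3 ± 80.4, SD, n = 4). Within the first of these samples its 2 libraries differed, with 363 and 854 CPM over 37 and 23 cells, the second being the library assigned to its sample by inference. Label 0 had 96.5 ± 67.8 CPM (SD, n = 6), label 5 had 69.3 ± 58.2 CPM (SD, n = 5), label 8 had 56.6 ± 33.4 CPM (SD, n = 7) and label 2 had 38.5 ± 17.6 CPM (SD, n = 4). Their ranges overlapped, and label 11 was low with 17.5 ± 8.20 CPM (SD, n = 4). Label 9 exceeded label 0 by 2.59 on the log2(CPM + 5) scale, in 4 of 4 shared samples. Outside the projection neuron-like labels, the Cajal-Retzius-like label 13 had 108 CPM at E10.5, 412 CPM at E12.5, 97.6 CPM in E14.5 replicate 1, 37.2 CPM at E15.5 and 20.6 CPM at E18.5, so that its mean of 135 ± 159.5 CPM (SD, n = 5) was set by E12.5. The endothelial-like label 16 had 173 CPM over 50 cells (exact Poisson 95% interval 128 to 229.9) and the mesenchyme-like label 15 had 135.0 CPM over 142 cells (108 to 167). The E12.5 value rests on 20 UMIs in 23 cells.

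The bases before the annotated starts of the neuropilin genes are shown because both genes peaked in the same label. They are from RefSeq on GRCm38.p6 (mm10), 5′ to 3′ on the + strand, up to the first base of any exon in GENCODE vM21, with GC boxes (GGGCGG or its reverse complement) in capitals. The Nrp1 window, at chr8:128358823-128359072, lies within the first intron of 1 GENCODE transcript that starts upstream, at 128358604, and directly before the start used by RefSeq. The Nrp2 window, at chr1:62703067-62703284, lies upstream of the gene.
Nrp1: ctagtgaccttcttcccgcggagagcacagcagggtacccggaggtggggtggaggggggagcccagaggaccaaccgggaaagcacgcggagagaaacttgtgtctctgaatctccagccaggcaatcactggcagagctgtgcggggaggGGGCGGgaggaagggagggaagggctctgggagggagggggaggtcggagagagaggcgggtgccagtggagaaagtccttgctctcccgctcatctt
Nrp2: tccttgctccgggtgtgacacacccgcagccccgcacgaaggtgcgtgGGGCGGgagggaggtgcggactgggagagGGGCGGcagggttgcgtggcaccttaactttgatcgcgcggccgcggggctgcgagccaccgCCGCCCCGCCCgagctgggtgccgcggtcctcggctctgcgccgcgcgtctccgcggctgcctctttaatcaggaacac
The 250 bases of Nrp1 held 1 GC box and the 218 bases of Nrp2 held 4, of which 2 share a base, and their GC contents were 64.4% and 72.5%, against a median of 52.4% over all 32536 promoter windows of 250 bases. A GC box is common, in 33.0% of those windows on either strand. Searched on both strands as well, the E-box CAGATG (14.4% of all windows), the homeodomain core TAATTA (4.84%), the octamer ATTTGCAT (1.62%) and the palindromic NFI motif (0.0369%) were not among these letters. Of the 8 genes, 7 matched the promoter table, and Plxna4 did not. Nrp1 (ENSMUSG00000025810) spans 128358604 to 128503363 on chromosome 8 and Nrp2 (ENSMUSG00000025969) spans 62703285 to 62818695 on chromosome 1. Sema3a and Sema3c are both on chromosome 5, and Plxna4 and Plxnd1 both on chromosome 6.

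The plexins, the signalling receptors, divided in another way. Plxna2 was present throughout the neuron lineage, with 522 ± 55.5 CPM in label 0 (SD, n = 6), 485 ± 99.6 CPM in label 9 (SD, n = 4), 422 ± 94.2 CPM in label 2 (SD, n = 4), 402 ± 150.5 CPM in label 5 (SD, n = 5) and 391 ± 98.2 CPM in label 11 (SD, n = 4). The ranges of these 5 overlapped. Label 8, at 294 ± 68.8 CPM (SD, n = 7), was below label 0 in 6 of 6 shared samples. The intermediate progenitor-like labels 7 and 4 had 317 ± 141 and 281 ± 137 CPM (SD, n = 4 and 6). Of the apical progenitor-like labels, label 3 had 27.9 ± 23.8 CPM (SD, n = 5), label 10 had 44.1 ± 7.06 CPM (SD, n = 5), label 12 had 54.5 ± 16.2 CPM (SD, n = 4) and label 1 had 75.4 ± 51.7 CPM (SD, n = 5). Label 6 had 16.4 and 164 CPM in its 2 samples, and 22.4 CPM over all its cells pooled. Cajal-Retzius-like cells, although neurons, had 27.5 ± 22.3 CPM (SD, n = 5).

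Plxna4, a class A plexin that partners Nrp1 in responses to Sema3a and also binds class 6 semaphorins, was highest in label 5 and label 0. Label 5 had 153 and 249 CPM in the E14.5 samples, 216 CPM at E15.5, 237 CPM at E16.5 and 191 CPM at E18.5 (209 ± 38.4, SD, n = 5). Label 0 had 279.5 CPM at E12.5, 219.5 and 241 CPM in the E14.5 samples, 184 CPM at E15.5, 136 CPM at E16.5 and 149.7 CPM at E18.5 (202 ± 55.1, SD, n = 6), and the pair overlapped. In label 2 it had 303 CPM at E12.5 and 89.7, 90.2 and 57.9 CPM in the later samples (135 ± 113, SD, n = 4). Label 9 had 64.1 ± 31.9 CPM (SD, n = 4), below label 5 in 4 of 4 shared samples. Label 11 had 7.25 ± 6.64 CPM (SD, n = 4), below label 5 by 4.32 on the log2(CPM + 5) scale.

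Plxnd1, the receptor for Sema3e and a partner of neuropilins in vessels, was sparse, with 238 UMIs in 162 cells of the whole matrix. Its highest level was in the endothelial-like label 16, with 289 CPM over 50 cells of all samples (exact Poisson 95% interval 229 to 359.7, counting error only), followed by label 13 with 47.1 ± 26.2 CPM (SD, n = 5). Among projection neuron-like labels it was at 15.4 ± 19.9 CPM in label 2 (SD, n = 4), where E12.5 had 45.3 CPM and the other samples had 4.51 to 7.17 CPM, and at 14.8 ± 18.3 CPM in label 11 (SD, n = 4). Label 9, the label richest in Sema3c, had 1.53 ± 1.91 CPM (SD, n = 4).

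Read across labels, ligand and receptor were not held by separate labels in the case of Sema3c. Label 9 and then label 0 were highest in Sema3c and highest in Nrp1 among the 6 main neuron labels. Label 5 combined little Sema3c (30.1 CPM) with 418 CPM of Nrp1 and the highest mean of Plxna4. Label 11 had Plxna2 within the range of the other projection neuron-like labels and the lowest mean of Sema3a, Sema6d, Nrp2 and Plxna4 among labels 9, 0, 5, 2, 11 and 8. Label 8 had the highest mean CPM of Sema3a and the lowest mean CPM of Nrp1 of the 6. Its Sema3a UMIs were in 25 of 436 cells. By the mean share of cells with a Sema3a UMI it did not lead, with 7.48% against 7.85% in label 0 and 10.1% in label 5. The endothelial-like label 16 had no Sema3a or Sema3c UMI among 276775 UMIs in 50 cells, and had 820.2 CPM of Nrp1 and 282 CPM of Sema6d. The 25 mural-like cells of label 18 had 594 CPM of Sema6d (exact Poisson 95% interval 421 to 816) and 485 CPM of Nrp1, again without a count of Sema3a or Sema3c. That absence says little, since label 18 held 63944 UMIs, where 3 counts would be 46.9 CPM. In the 32 microglia-like cells of label 17, Nrp1 was at 246 CPM (166 to 351).

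Within cells of labels 9 and 0, detection of Sema3c together with Nrp1 was close to what independent detection would give, and other pairs lay above or below it. After thinning to 1000 UMIs, label 9 had Sema3c in 167 and Nrp1 in 279 of 368 cells, and both in 128, against 127 if the genes were independent within each sample. For Sema3c and Nrp2 the number was 42 cells, against 50.7, and for Nrp1 and Nrp2 it was 90 cells, against 86.9. In label 0, Sema3c and Nrp1 were together in 101 of 1381 cells, against 103, and Sema6d and Nrp1 in 88, against 73.4, above independence in 6 of 6 samples. In label 5, Nrp1 and Plxna2 were together in 68 of 659 cells, against 48.6, above independence in 5 of 5 samples. Nrp1 and Nrp2 were found together in 29 cells of label 0, against 40.1, and below independence in all samples but 1. In label 2 neither Sema3c nor Nrp1 shared a cell with Nrp2 in 828 cells, but 0.526 and 1.92 such cells were the independent numbers, so that an absence was not detectable at this depth. Cells of 1 sample share their libraries, and these numbers carry no test.

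Change with stage was tested on sums of each class per sample, with edgeR's quasi-likelihood test of a slope on embryonic day and Benjamini-Hochberg adjustment over all genes tested in that class. A slope of 1 is a doubling per day. In projection neuron-like cells (labels 2, 5, 9 and 11) all 8 genes had enough counts to be tested over 6 samples, and 2 rose and 1 fell, against 3.08% of all 9712 genes called (2.05% rising and 1.03% falling). Sema3c had 43.4 CPM at E12.5, 72.9 and 86.9 CPM in the E14.5 samples, 152 CPM at E15.5, 150.9 CPM at E16.5 and 409 CPM at E18.5. Its slope was 0.56 ± 0.05 (SE, edgeR adjusted p = 0.000343). Nrp1 had 29.7 CPM at E12.5, 291 and 372 CPM in the E14.5 samples, 656 CPM at E15.5, 715 CPM at E16.5 and 859 CPM at E18.5. Its slope was 0.68 ± 0.14 (SE, edgeR adjusted p = 0.0248, and 0.0753 without E16.5). Plxnd1 fell, with 51.4 CPM at E12.5 and between 1.36 and 15.8 CPM in every later sample (slope −0.68 ± 0.16, SE, edgeR adjusted p = 0.0301). This call rested on single samples, since the adjusted p was 0.527 without E12.5, 0.0584 without E15.5, 0.062 without E16.5 and 0.0778 without E18.5, and Plxnd1 had too few counts to be tested without E14.5 replicate 1. Nrp2 (slope 0.27, edgeR adjusted p = 0.104), Sema6d (−0.24, 0.192), Sema3a (0.21, 0.368), Plxna4 (−0.08, 0.752) and Plxna2 (−0.01, 0.964) did not pass. Without E18.5, Nrp2 (0.53, edgeR adjusted p = 0.0178) and Sema6d (−0.57, 0.0192) passed, and Nrp2 also passed with DESeq2 in all samples (adjusted p = 0.0198).

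**Figure D3:**
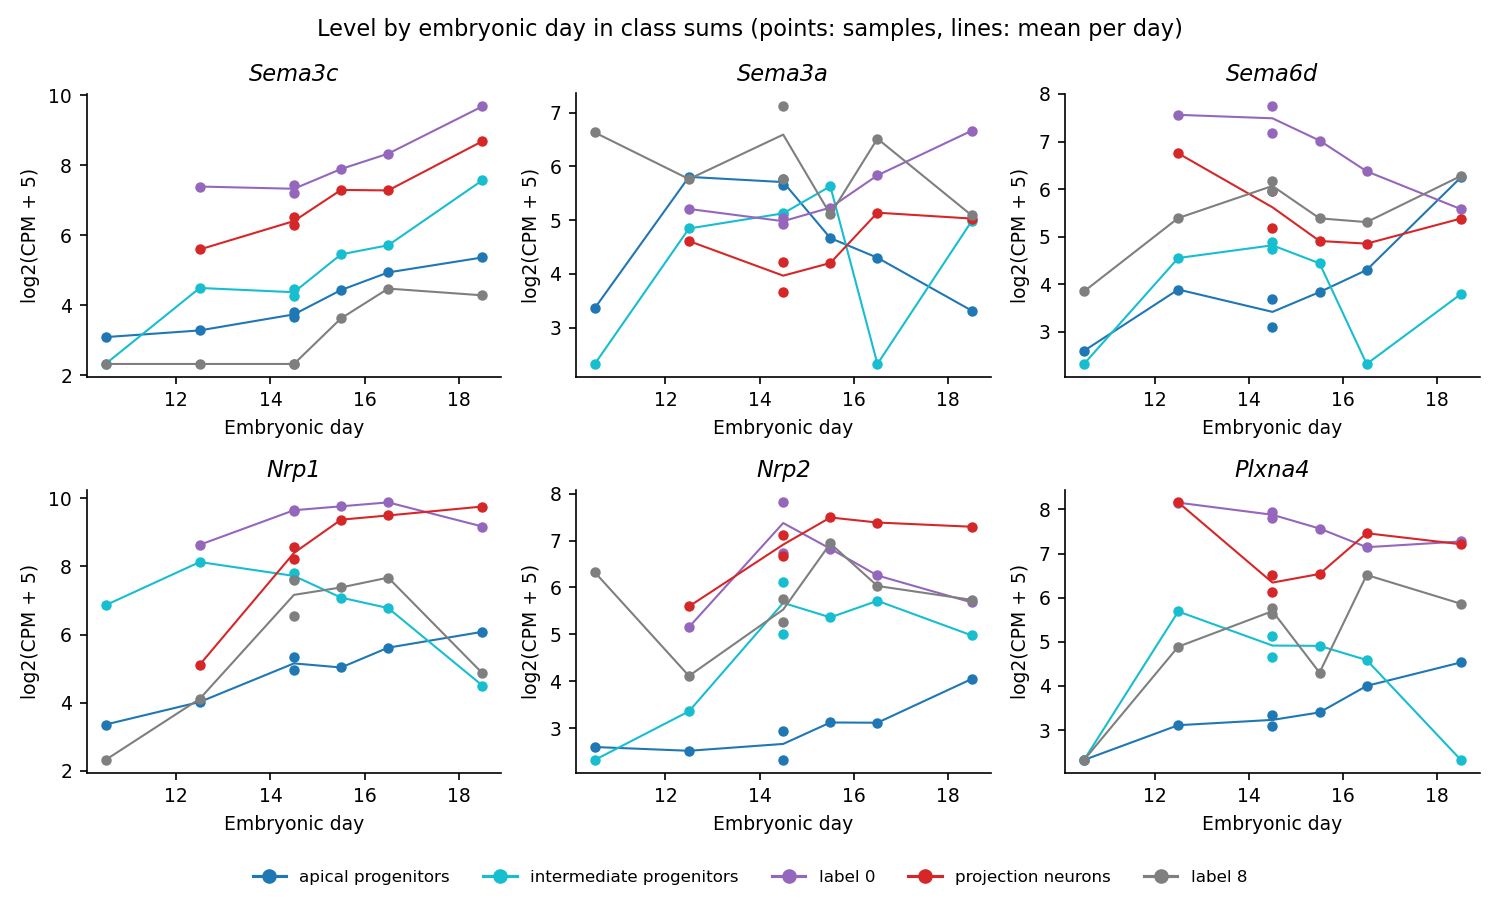
Level of 6 genes, as log2(CPM + 5), against embryonic day in 5 classes, with 1 point per sample and lines through the mean of each day. Sema3c in label 0 and in projection neurons was highest at E18.5, where label 0 had 819.7 CPM, while Sema6d in label 0 was lowest there.

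The make-up of the class moved along with these slopes. Label 9 was 0.9% of the projection neuron-like cells at E12.5, 7.3% and 12.3% in the E14.5 samples, then 21.3% (E15.5), 21.1% (E16.5) and 32.4% (E18.5), and label 2 was 91.8% of them at E12.5 and 0.6% at E18.5. With label 9 left out, a choice made after seeing the data, Sema3c had 42.5 CPM at E12.5, 25.8 and 35.3 CPM in the E14.5 samples, 19.1 CPM at E15.5, 34.3 CPM at E16.5 and 61.8 CPM at E18.5. Its slope was then 0.14 (edgeR adjusted p = 0.456). Nrp1 still rose, with a slope of 0.53 (edgeR adjusted p = 0.0347) and levels of 28.7 CPM at E12.5, 155 and 233 CPM in the E14.5 samples, 325 CPM at E15.5, 402 CPM at E16.5 and 356 CPM at E18.5. Sema6d fell without label 9 (slope −0.48, edgeR adjusted p = 0.0114), the Nrp2 slope was −0.05 (0.853), and Plxnd1 no longer passed (−0.58, 0.0563). Leaving out label 9 did not hold the make-up fixed. Label 2 gave way to label 5, which was 3.2% of all projection neuron-like cells at E12.5 and 65.7% at E18.5. The part of that shift in the slopes of Nrp1 and Sema6d was not tested. Interneuron markers, summed over 16 genes, were lowest in the class at E12.5 with 14.8 CPM and highest at E18.5 with 145 CPM, with 5 to 15 of the 16 detected, and those of endothelial cells lay between 3.42 and 18.6 CPM over 14 genes. Their part in these slopes was not tested.

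**Figure D4:**
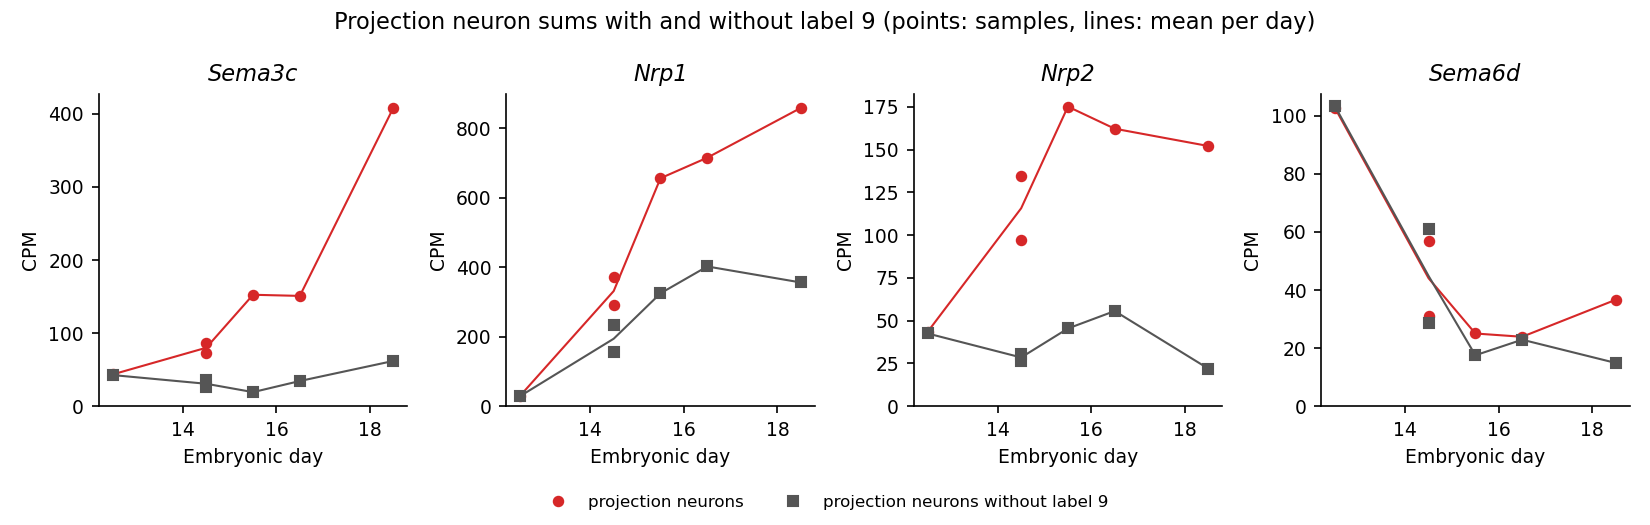
CPM of Sema3c, Nrp1, Nrp2 and Sema6d in projection neuron-like sums by embryonic day, with all 4 labels (circles) and without label 9 (squares), 1 point per sample. Sema3c reached 409 CPM at E18.5 with label 9 and 61.8 CPM without it, whereas Nrp1 was higher at E18.5 than at E12.5 in either case.

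Within single labels, Sema3c rose in label 0 (slope 0.43 ± 0.06, SE, edgeR adjusted p = 0.00161) and Sema6d fell (−0.33 ± 0.08, SE, edgeR adjusted p = 0.034). These were 2 of 7 genes tested over 6 samples, against 1.46% of all 7347 genes (0.857% rising and 0.599% falling). Of the others, Sema3a (0.31, edgeR adjusted p = 0.112) passed without E12.5 (0.50, 0.0487). Both calls were lost without E18.5, where the slope of Sema3c was 0.25 (edgeR adjusted p = 0.326) and that of Sema6d −0.23 (0.39), and that of Sema6d also without E16.5 (adjusted p = 0.0981). The 2 libraries of E18.5 had 865 and 753 CPM of Sema3c in label 0, both above every library of the earlier stages, which had 136 to 318 CPM. Both libraries are of 1 sample and do not replicate the stage. Projection neuron markers in label 0, summed over 18 genes, were highest at E12.5 with 9216 CPM and lowest at E18.5 with 4879 CPM, with 15 to 18 detected, and their part in these slopes was not tested. In label 5, none of 7 genes tested over 5 samples passed with edgeR, against 0.371% of all 7273 genes, although 4 had an unadjusted p under 0.05, and DESeq2 called 0. Those 4 were Sema3c (slope 0.49), Sema6d (−0.53), Nrp2 (−0.43) and Plxna2 (−0.25). In label 8, none of the 3 genes with enough counts passed over 7 samples with edgeR or DESeq2 and none had an unadjusted p under 0.05, against 1.86% of all 3379 genes (1.24% rising). Nrp1 (0.24, edgeR adjusted p = 0.579) passed there without E18.5 (0.80, 0.00836). Label 2 had 4 samples and was not fitted. Label 9 also had 4, and its levels are given above.

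In apical progenitor-like cells, levels were low and 4 of the 8 genes had enough counts to be tested over 7 samples. Of these 2 rose, against 9.31% of all 8392 genes (6.39% rising and 2.92% falling). Sema3c had 3.51 CPM at E10.5, 4.72 CPM at E12.5, 8.91 and 7.80 CPM in the E14.5 samples, 16.7 CPM at E15.5, 25.7 CPM at E16.5 and 36.3 CPM at E18.5 (slope 0.46 ± 0.08, SE, edgeR adjusted p = 0.00618, and 0.0565 without E18.5). Nrp1 had 5.27 CPM at E10.5, 11.3 CPM at E12.5, 35.2 and 26.0 CPM in the E14.5 samples, 27.8 CPM at E15.5, 44.0 CPM at E16.5 and 62.7 CPM at E18.5 (slope 0.44 ± 0.07, SE, edgeR adjusted p = 0.0016). Sema3a was not monotonic, with 5.27 CPM at E10.5, 50.8 CPM at E12.5, 45.0 and 49.4 CPM in the E14.5 samples, 20.4 CPM at E15.5, 14.7 CPM at E16.5 and 4.95 CPM at E18.5. Its straight-line slope was −0.08 (edgeR adjusted p = 0.831), and without E10.5 it was −0.49 and passed (0.0145). Plxna2 did not pass (0.20, edgeR adjusted p = 0.0882), but did with DESeq2 (adjusted p = 0.04) and without E18.5 (0.32, edgeR adjusted p = 0.0209). Sema6d and Plxna4, with at most 43 and 11 UMIs in any sample, fell below the count filter, and without that filter both passed (Sema6d 0.57, edgeR adjusted p = 0.00167, and Plxna4 0.55, 0.0245). The labels of this class changed with stage too, since label 6 was 90.8% of it at E10.5 and label 12, led by Olig1, Tnc and Olig2, was 83.4% at E18.5. In label 12, Sema3c had 6 UMIs at E16.5 (39.2 CPM) and 20 UMIs at E18.5 (39.1 CPM). Pooled over samples, Sema3c was at 7.74 CPM in label 1, 8.51 CPM in label 3 and 3.59 CPM in label 10. Summed levels of 10 pan-neuronal markers were 429 to 655 CPM in the first 6 samples and 1293 CPM at E18.5, all 10 being detected there, and 7 oligodendrocyte precursor markers ranged between 2.90 and 1393 CPM. Their part in these rises was not tested.

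In intermediate progenitor-like cells, Sema3c was the 1 gene of 4 tested that rose over 7 samples, against 1.42% of all 5505 genes (0.708% in each direction). It had no count at E10.5, where 3 counts would be 23.8 CPM, then 17.5 CPM at E12.5, 14.2 and 17.3 CPM in the E14.5 samples, 38.9 CPM at E15.5, 47.6 CPM at E16.5 and 186 CPM at E18.5 (slope 0.64 ± 0.12, SE, edgeR adjusted p = 0.0153). The last sample held 46 cells, and without it the slope was 0.45 (edgeR adjusted p = 0.301). Of its 21 Sema3c UMIs, 19 were in the 16 cells of label 7 (372 CPM) and 2 in the 30 cells of label 4 (32.2 CPM). Label 7 made up between 12.9% (E16.5) and 75.8% (E10.5) of the class, and 34.8% of it at E18.5. Summed over 18 genes, projection neuron markers were between 992 and 3720 CPM in the class and at 1450.0 CPM at E18.5, with 12 to 17 detected, and their part in this slope was not tested. Nrp1 ran the other way without passing, with 275 CPM at E12.5 and 17.7 CPM at E18.5 (slope −0.22, edgeR adjusted p = 0.33). Without E10.5, Nrp1 (−0.47, edgeR adjusted p = 0.0367) and Plxna2 (−0.43, 0.0221) passed.

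**Figure D5:**
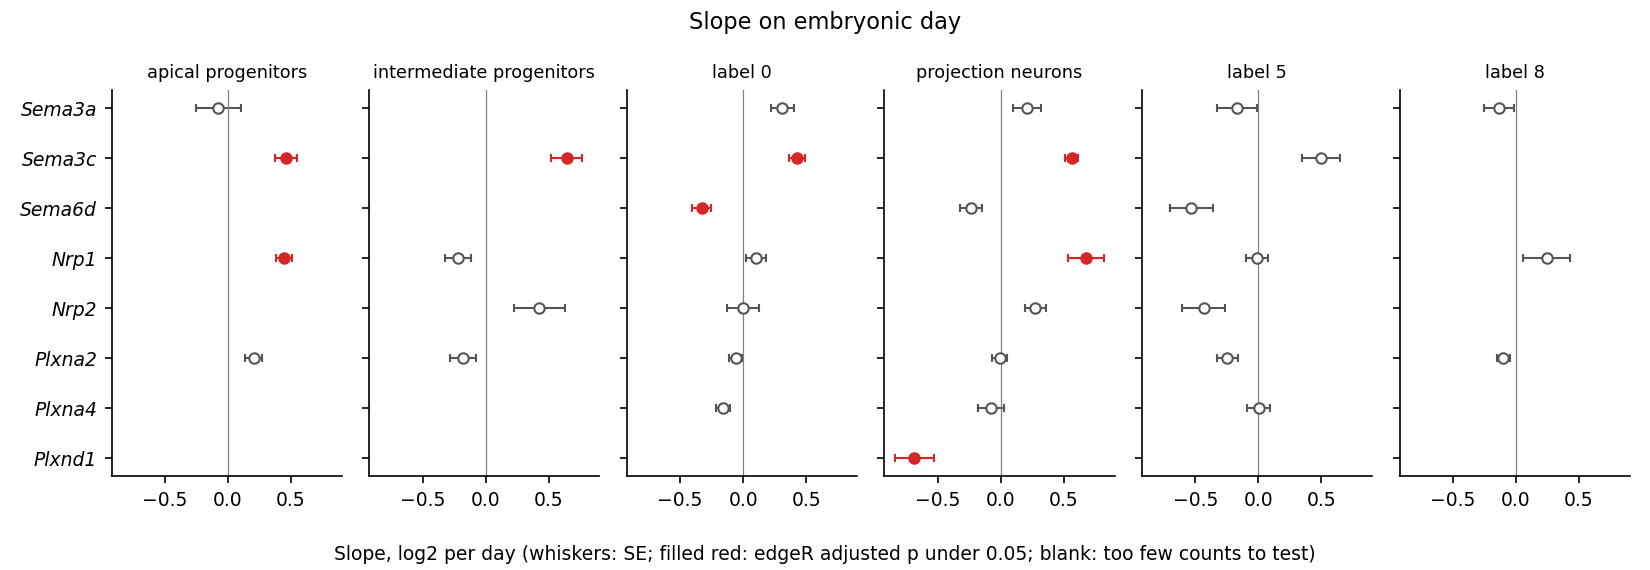
Slope on embryonic day in log2 per day, with SE whiskers, for each gene with enough counts in 6 classes. Filled points passed the edgeR threshold. Sema3c was positive in all 5 classes where it was tested and passed in 4 of them.

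Whether a gene changed differently in the neuron and progenitor classes was tested as an interaction between class and day, blocked by sample, over the 6 samples that had both. Of the 8 genes, 1 had a higher slope in projection neurons and 2 a lower one, against 4.33% of all 10311 genes called (2.06% higher and 2.27% lower). Sema6d, Nrp2, Plxna4 and Plxnd1 had too few counts to be tested in apical progenitors alone. Here the count filter took both classes together, so that these 4 could pass it through their counts in projection neurons. The apical side of the Sema6d and Plxna4 differences therefore rests on few counts. Both of the lower slopes are of this kind, so that setting their number against the share over all genes is a description. The slope of Sema3a was higher in projection neurons than in apical progenitors, by 0.69 ± 0.17 (SE, edgeR adjusted p = 0.025). It had 19.4 CPM in projection neurons at E12.5 and 27.6 CPM there at E18.5, whereas in apical progenitors it had 50.8 CPM at E12.5 and 4.95 CPM at E18.5. Sema6d had a lower slope in projection neurons, by −0.75 ± 0.10 (SE, edgeR adjusted p = 0.00013). Its level was 103 CPM in projection neurons at E12.5 and 36.6 CPM at E18.5, and in apical progenitors 9.80 CPM at E12.5 and 70.9 CPM at E18.5, where the count was 43 UMIs. For Plxna4 the difference was −0.49 ± 0.11 (SE, edgeR adjusted p = 0.0114), with 281 CPM in projection neurons at E12.5 and 143 CPM at E18.5, against 3.63 and 18.1 CPM in apical progenitors on the same days. All 3 calls depended on E18.5, without which the adjusted p was 0.476 for Sema3a, 0.249 for Sema6d and 0.125 for Plxna4. Sema3a was also lost without E16.5 (0.0696) and Plxna4 without E12.5 (0.398). The slope of Sema3c did not differ detectably between the classes (0.06 ± 0.09, SE, edgeR adjusted p = 0.786), nor did that of Nrp1 (0.33 ± 0.11, SE, edgeR adjusted p = 0.113), which passed without E18.5 (0.81, 0.00383).

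Other genes of the pathway were followed as a list of 74: 17 other semaphorins, 6 other plexins, 12 co-receptors and adhesion partners and 39 cytoplasmic effectors. In projection neuron-like cells 60 were tested, and 2 rose and 2 fell, against 3.08% of all genes called there, with a median slope of 0.05 against −0.00 over all genes. The growth factor Vegfa, a ligand of Nrp1 (slope 0.37, edgeR adjusted p = 0.0173), and the adhesion molecule Cntn1 (0.31, 0.0291) rose. Rnd3, a small GTPase known for its role in neuron migration (−0.72, 0.00113), and the adaptor Gipc1 (−0.24, 0.0182) fell. In label 0, Chl1, an adhesion molecule that associates with Nrp1, rose (0.47, edgeR adjusted p = 0.0182), and Nrcam (−0.39, 0.0175), Rnd3 (−0.39, 0.0127) and Rnd2 (−0.30, 0.035) fell, among 45 tested, against 1.46% of all genes called. In apical progenitor-like cells 7 of 48 rose and 2 fell, against 6.39% rising and 2.92% falling of all genes, with a median slope of 0.07 against 0.00 over all genes. Among those with a mean of at least 20 CPM, Chl1 had the steepest rise (1.07, edgeR adjusted p = 4.4e-06), ahead of Dpysl3, a collapsin response mediator (0.27, 0.00984), Vegfa (0.26, 0.00769) and Nrcam (0.22, 0.0485). The kinases Pak3 (−0.30, 0.0445) and Pak1 (−0.15, 0.0407) fell. In intermediate progenitor-like cells Pak3 (−0.41, edgeR adjusted p = 0.00509) was the 1 called of 35, against 1.42% of all genes. In label 8, Chl1 (0.50, edgeR adjusted p = 0.0222) and the transmembrane semaphorin Sema6a (0.39, 0.0415) rose among 25 tested, against 1.86% of all genes called, and DESeq2 called 0 of the 25. In label 5, none of 49 passed with edgeR, with 6 at an unadjusted p under 0.05 and 0 by DESeq2. In the interaction of class and day, 2 of 58 had a higher and 7 a lower slope in projection neurons, against 2.06% and 2.27% of all genes. All 9 are named after their values were seen. The higher ones were Sema5a (0.80, edgeR adjusted p = 0.00288) and Dpysl4 (0.35, 0.0384). The lower ones were Cntn1 (−1.11, edgeR adjusted p = 0.00466), Chl1 (−0.83, 9.7e-05), Rnd3 (−0.51, 0.00692), Sema6a (−0.40, 0.041), Gipc1 (−0.30, 0.0169), Itgb1 (−0.29, 0.00284) and Fyn (−0.27, 0.0128).

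Over the 70 sums of label and sample, the gene nearest to Sema3c among 7221 was Nrp1 (Pearson r of log2(CPM + 5) = 0.65), then Zbtb18 (0.62), a transcriptional repressor, and Rwdd3 (0.61). Nrp1 in turn was nearest to Neurod2, a transcription factor of excitatory cortical neurons (0.76), Znrf2 (0.75) and Itm2b (0.75). Nrp2 was nearest to Tmsb10 (0.75), Ank3 (0.73) and Arpc5 (0.72). Plxna2 was nearest to Sox4, a factor of newborn neurons (0.83), Smim18 (0.78) and Serpini1 (0.77), and Plxna4 to Ttc28 (0.80), Nkain3 (0.74) and Tnrc6c (0.74). Sema6d was nearest to Actb (0.70), Fyn (0.69) and Tmsb4x (0.67), and Plxnd1 to Atox1 (0.70), Baiap2 (0.67) and Cdkn1a (0.63). Sema3a had lower correlations, the nearest genes being Sncaip (0.54), Cherp (0.48) and Sh3rf3 (0.48). With 765 UMIs of Sema3a and 238 of Plxnd1 in the matrix, many of their sums held few counts, which limits what their correlations can show. Sums of 1 sample share their library and depth, so that these correlations are a description and carry no p.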

How the data were processed

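The deposited values are raw UMI counts for each gene in each cell, with gene symbols and, per cell, its library and cluster number. Cells were made with Drop-seq protocol 3.1, per the labels' protocols, and mm10 and Seurat 3.1.5 were used, per the submitters' processing notes. The aligner, annotation and counted strand are not given in the sources used here, so that antisense reads cannot be told apart. The fewest genes in any cell were 501 and the highest mitochondrial share 9.9964%. The 12 libraries were assigned to 7 samples by name, 1 of them (1303 cells) by inference. 4 barcodes occurred in 2 or more libraries, each time of different samples, and were kept.

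The 13 cells with over 2% haemoglobin UMIs were set aside. Scrublet (scanpy 1.11.5, expected rate 5%, per library) called 95 doublets (0.926%), left out only in an alternative. Counts were summed per class and sample with at least 20 cells. Slopes on day were fitted where at least 5 samples remained with the glmQLFit and glmQLFTest functions of edgeR 4.0.16 (R 4.3.3; low counts removed by filterByExpr, TMM scaling, two-sided, threshold 0.05), and tested on simulated data first. CPM in the text are over plain totals. Depth-matched shares used 1000 UMIs per cell, leaving out 1782 shallower cells. Intervals cover counting error only.

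The 8 genes and all lists were chosen with earlier results of these data known. All 8 are given everywhere. Of the pathway list, up to 4 called genes per direction with the steepest slope and at least 20 CPM were named, and the 3 nearest genes of each member by correlation, mitochondrial, ribosomal protein and haemoglobin genes left out. Alternatives used RLE size factors, DESeq2 1.42.0, no low count filter, cells with at least 1000 UMIs, doublets left out, E14.5 summed, libraries with suffix 1 and each sample left out. Added after seeing the data were leaving out label 9, label 6 or the inferred library.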

Additional observations from a re-analysis of the deposited data

Results flagged for a closer look

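The slopes on embryonic day of 3 genes differed between projection neuron-like and apical progenitor-like cells by the interaction of class and day in edgeR. Sema3a had a slope higher in projection neurons by 0.69 on the log2 scale per day (edgeR adjusted p = 0.025). For Sema6d the difference, projection neurons minus apical progenitors, was −0.75 (edgeR adjusted p = 0.00013), and for Plxna4 it was −0.49 (edgeR adjusted p = 0.0114). Each of the 3 lost its call without E18.5, where label 12 made up 83.4% of the apical progenitor-like cells. Sema6d and Plxna4 had too few counts to be tested in apical progenitor-like cells alone. They could pass the filter of the interaction through their counts in projection neurons, and the apical side of both differences rests on few counts.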

How the results depend on the processing

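No paired analysis was possible because no replicate number joins samples of different stages, each of which has 1 sample except E14.5. The block in the interaction is the sample, which joins its own 2 classes. The slope in label 2 was not run, since 4 samples remained, nor were label 5 with E14.5 summed or with a sample left out, or the suffix 1 libraries for label 0, label 5, projection neurons and the interaction. Without the low count filter, the genes called were 1384 in apical progenitors (781 with it), 268 in intermediate progenitors (78), 319 in label 0 (107), 684 in projection neurons (299), 239 in label 8 (63), 116 in label 5 (27) and 756 in the interaction (446), and 4 of the 8 were called in apical progenitors (2 with it) and 5 in projection neurons (3). DESeq2 called 141 genes in intermediate progenitors. With E14.5 summed, label 0 had 162 calls and apical progenitors 4 of the 8 genes. With suffix 1 libraries, 238 genes were called in apical progenitors, 29 in intermediate progenitors and 0 in label 8, where 244 of 2246 genes had an unadjusted p under 0.05 with edgeR and no other tool was run, and 0 of the 8 were called in intermediate progenitors, as with cells of at least 1000 UMIs, where Sema3c had too few counts to be tested. Leaving out each sample gave 401 to 886 calls in apical progenitors, 31 to 161 in intermediate progenitors, 42 to 155 in label 0, 147 to 311 in projection neurons, 20 to 134 in label 8 and 171 to 580 in the interaction. Of the 8, it called 2 to 4 in apical progenitors, 0 to 3 in intermediate progenitors, 0 to 3 in label 0, 1 to 4 in projection neurons, 0 to 1 in label 8 and 1 to 3 in the interaction. Thinning to 1000 UMIs lowered the mean share of cells with a UMI over samples to 40.2% for Sema3c in label 9 (63.2% unthinned), 75.2% for Nrp1 in label 9 (91.0%), 32.4% for Nrp2 in label 9 (60.0%), 35.2% for Plxna2 in label 0 (52.4%) and 16.8% for Plxna4 in label 5 (44.5%), by construction.

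The slopes that changed sign were all of genes that had not passed in the fit of all samples. In label 0 the Nrp2 slope of 0.00 became −0.0947 with DESeq2, −0.0243 without the filter, −0.00186 with cells of at least 1000 UMIs, −0.0184 without doublets, −0.0161 without the inferred library, and −0.411 to 0.376 without 1 sample, and that of Nrp1 ran between −0.0672 and 0.337 without 1 sample. In apical progenitors Sema3a became 0.0204 with suffix 1 libraries, and without 1 sample it ran between −0.488 and 0.182. In projection neurons Plxna4 ran between −0.2104 and 0.301 and Plxna2 between −0.0929 and 0.115 without 1 sample, and Nrp2 became −0.0484 without label 9. In label 8 Nrp1 ran between −0.0505 and 0.797 without 1 sample. In label 5 Plxna4 became −0.000685 with size factors, and Nrp1 became 0.0153 without the filter and 0.000637 without doublets. In the interaction Sema3c ran between −0.0882 and 0.1004 without 1 sample. The causes were not tested. The calls of Sema3c and Nrp1 in projection neurons and of Sema3c in label 0 held with DESeq2, size factors, 1000 UMIs, without doublets and without the inferred library. They did not hold in every alternative. In projection neurons the call of Sema3c was lost without label 9 and that of Nrp1 without E16.5. In label 0 the call of Sema3c was lost without E18.5.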
